A study of Homo sapiens with 2 samples.

Results

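Chaperone genes of the cytosol, nucleus and mitochondria were described in A549, an established line of human lung adenocarcinoma cells. The members were chosen by symbol and not by their values, though with earlier results of these data known. They were the single-gene loci whose names start with HSPA, HSPB, HSPH or DNAJ, or with BAG or CCT and a digit, together with HSPD1, HSPE1, HSP90AA1, HSP90AB1, TRAP1, TCP1, HSF1 and HSF2. The endoplasmic reticulum (ER) genes HSPA5, DNAJB9, DNAJB11 and DNAJC3, and HSPBAP1, were left out. This gave 71 genes of 12917 named genes. The mitochondrial co-chaperonin HSPE1 had a value only for a locus that it shares, and is therefore not among the 71. Some J proteins that the symbol rule keeps, such as DNAJC10, DNAJC1 and DNAJB12, are known to reside in the ER, and HSPB11 (now IFT25) is a ciliary transport protein, so the set is wider than its compartments.

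The libraries were 1 of A549 cells with MYOCD knockdown and 1 of wild type A549 cells. MYOCD encodes myocardin, a coactivator of serum response factor. The treatment label gives doxycycline for 72 h for both, whereas the series' design describes wild type cells with no treatment, so whether they received doxycycline is unsettled. If they did not, the treatment and the knockdown cannot be told apart. The knockdown sample carries the genotype label knockdown and the title MYOCD-/-, and no source used here says how it was made or whether it is 1 clone. With 1 library in each group no spread between replicates could be set against a difference, no difference was tested, and every value below describes this pair of libraries.

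Chaperones bind unfolded or partly folded proteins and hold, fold or pass them on. HSP70 proteins bind short exposed stretches in a cycle driven by ATP: J proteins bring the substrate and start ATP hydrolysis, and nucleotide exchange factors of the HSP110 and BAG families release it. HSP90 acts later on clients such as kinases and steroid receptors, the ring-shaped chaperonin CCT folds actin and tubulin, and HSP60 with HSP10 folds proteins imported into mitochondria. Heat shock factor 1, encoded by HSF1, binds heat shock elements, inverted repeats of the bases GAA, and drives the inducible genes of these families.

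The values were RPKM, which are reads scaled by transcript length and library size, so levels of different genes may be set side by side. MYOCD itself was close to the lowest values of the table, with 0.40 RPKM in the knockdown library, against 0.88 RPKM in the wild type library. The 6 epithelial markers looked at (KRT8, KRT18, KRT19, EPCAM, CDH1 and CLDN4) summed to 3240 RPKM in the knockdown library and 3358 RPKM in the wild type library. The 6 markers known to be high in KEAP1-mutant A549 cells summed to 2585 and 2527 RPKM in the same order. Of the alveolar markers only NAPSA was measured (0.771 RPKM in the knockdown library and 1.27 RPKM in the wild type library). The fibroblast and leukocyte markers, of which 2 each were measured, summed to under 5 RPKM in each library. Medians over all loci were 8.94 RPKM in the knockdown library and 9.06 RPKM in the wild type library.

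The chaperone genes lay slightly higher in the knockdown library as a whole. Of the 5 most abundant, HSPA8, HSP90AA1 and HSPD1 lay higher, HSP90AB1 lower and HSPB1 slightly lower. Each difference below is a log2 ratio of knockdown over wild type with 1 RPKM added to both. Of the 71 genes, 69 had a mean of at least 1 RPKM, and each of these had more than 1 RPKM in both libraries. Their median difference was 0.08, against 0.01 for the 12140 named genes with such a mean. Above 0 lay 49 of the 69 (71.0%), against 52.1% of all named genes. A rule of 1.2-fold on this scale was met by 14 genes in the upward direction (20.3%), where 12.4% of all named genes met it, and by 4 in the downward direction (5.8%), where 14.1% of all named genes met it. Not a single member reached a 2-fold difference, which 1.37% of all named genes did. Rescaling the libraries to equal summed RPKM over all loci moved the median of all named genes by -0.18 and that of the chaperone genes to -0.12, still 0.05 above all genes, with 5 members past the rule upward and 11 downward, where 3.93% and 33.1% of all named genes passed it. Under that scaling HSP90AA1, HSPA8, HSPA1B, HSPH1, HSPD1, HSPB8, DNAJC11, DNAJC16 and DNAJC30 were no longer past the rule upward, and BAG1, BAG6, HSPBP1, HSF2, HSPB1, HSPA12B and DNAJC8 were past it downward.

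**Figure D1:**
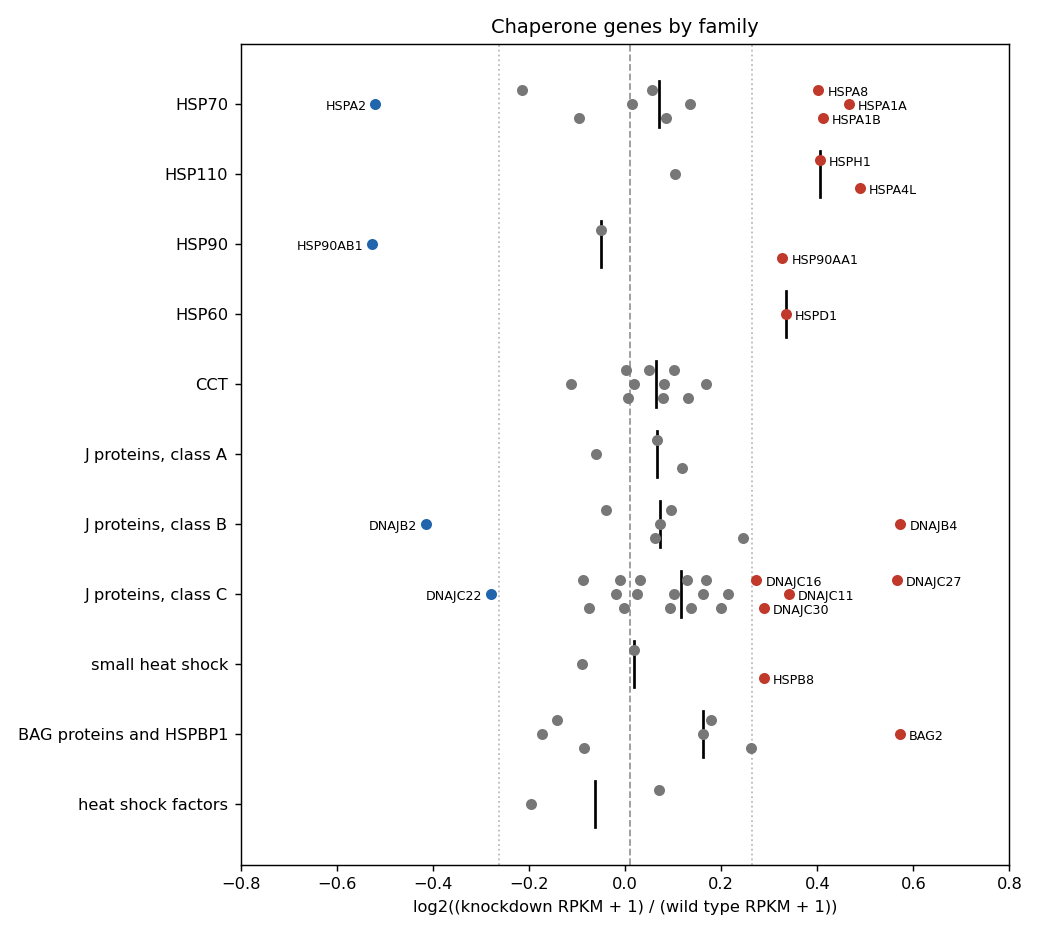
Differences of the 69 chaperone genes by family, as log2((knockdown RPKM + 1) / (wild type RPKM + 1)) on the x axis; each point is 1 gene, black bars are family medians, the dashed line is the median of all named genes and the dotted lines mark 1.2-fold. Genes past 1.2-fold are named: 14 lie to the right and 4 to the left, where 12.4% and 14.1% of all named genes do. Every CCT gene lies between the lines. With equal summed RPKM over all loci all points would lie further left, 5 of them past the right line and 11 past the left. Of all named genes, 3.93% and 33.1% would then lie past these lines.

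Of the genes with a mean under 1 RPKM, CCT6B, a testis form of a CCT subunit, had 0.740 RPKM in the knockdown library, against 0.628 RPKM in the wild type library. DNAJB7, a J protein also known from testis, had 0.893 RPKM in the knockdown library, against 0.538 RPKM in the wild type library. Both were near the lowest values in the table, where the higher library of every locus has at least 0.652 RPKM.

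The cytosolic HSP90 genes lay on opposite sides of 0. HSP90AA1, the stress-inducible form, had 1077 RPKM in the knockdown library, against 858 RPKM in the wild type library, a difference of 0.33 or 1.26-fold higher, but 0.13 and inside the rule with equal summed RPKM. HSP90AB1, the constitutive form, had 553 RPKM in the knockdown library, against 798 RPKM in the wild type library, a difference of -0.53 or 1.44-fold lower, and -0.72 with equal summed RPKM. Their summed level was nearly the same, at 1631 RPKM in the knockdown library and 1656 RPKM in the wild type library. The share of HSP90AA1 in that sum was 66.1% in the knockdown library and 51.8% in the wild type library, and the ratio of HSP90AA1 to HSP90AB1 was 1.95 in the knockdown library and 1.08 in the wild type library, a ratio within each library that its scaling leaves as it is. Genes this abundant differed little in general: of 574 protein-coding loci of a single gene that averaged 100 RPKM or more and held no short RNA gene, 6.79% passed the 1.2-fold rule upward and 6.27% downward, and the central 95% of their differences ran from -0.37 to 0.36. Of the 573 others, 8 (1.4%) were lower by as much as HSP90AB1 or more, and 20 (3.49%) were higher by as much as HSP90AA1 or more. The longest coding sequences of the pair share 76.1% of 2175 aligned bases, and pseudogenes named after them number 4 for HSP90AA and 5 for HSP90AB in GENCODE release 29. One of those, HSP90AB2P, had 12.7 RPKM in the knockdown library, against 10.2 RPKM in the wild type library, a difference of 0.29, or 0.10 with equal summed RPKM. TRAP1, the mitochondrial HSP90, had 95.8 RPKM in the knockdown library and 99.2 RPKM in the wild type library.

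**Figure D2:**
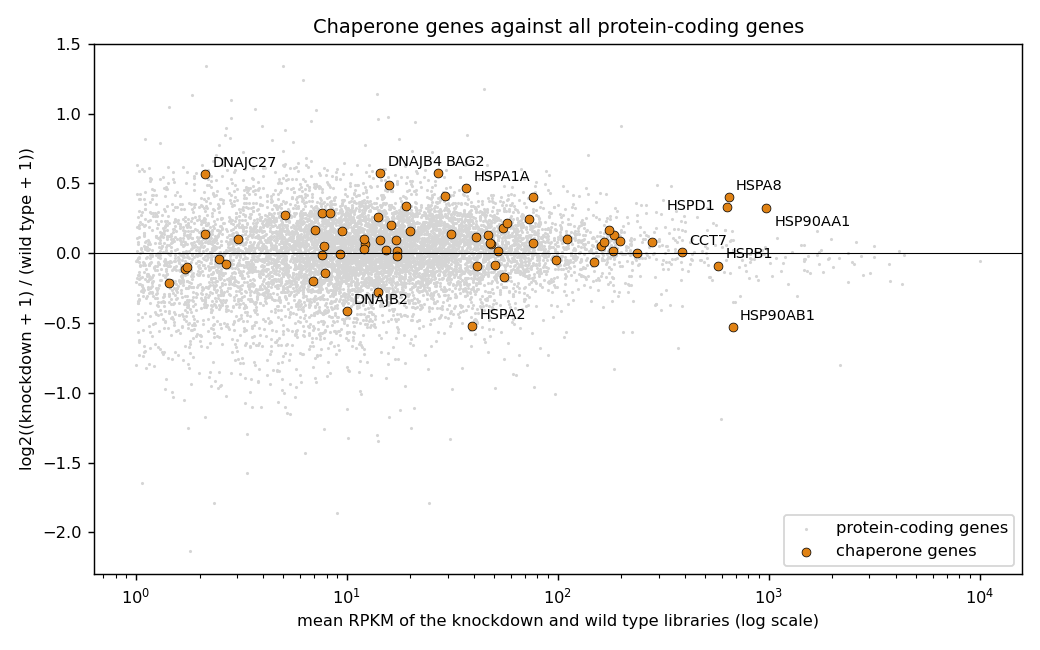
Mean RPKM of both libraries (x axis, log scale) against the difference, log2((knockdown + 1) / (wild type + 1)) (y axis), for 69 chaperone genes (orange) over protein-coding genes without a short RNA gene inside (grey). Of the 5 most abundant, HSPA8, HSP90AA1 and HSPD1 lie at 0.33 to 0.40, HSPB1 at -0.09 and HSP90AB1 at -0.53.

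HSP70 genes also lay on both sides. HSPA8, the constitutive cytosolic HSP70 and the most abundant of them, had 736 RPKM in the knockdown library, against 557 RPKM in the wild type library (1.32-fold higher, a difference of 0.40, or 0.20 and inside the rule with equal summed RPKM). Of the 574 loci averaging 100 RPKM or more described above, 12 (2.09%) were higher by as much or more. The gene holds 3 small nucleolar RNA genes on its own strand (SNORD14C, SNORD14D and SNORD14E) and has 17 annotated pseudogenes, and how far these touch its value was not tested. The heat-inducible pair HSPA1A and HSPA1B was also higher: HSPA1A had 42.7 RPKM in the knockdown library, against 30.7 RPKM in the wild type library, and HSPA1B had 33.4 RPKM in the knockdown library, against 24.8 RPKM in the wild type library. Their coding sequences differ at 4 of 1926 bases, so reads can hardly be assigned to either; summed, the pair had 76.1 RPKM in the knockdown library and 55.5 RPKM in the wild type library, 1.37-fold higher. With equal summed RPKM their differences were 0.27 for HSPA1A and 0.22 for HSPA1B, the second inside the rule. HSPA2, a form prominent in testis and also expressed elsewhere, had 32.1 RPKM in the knockdown library, against 46.4 RPKM in the wild type library, a difference of -0.52 or 1.45-fold lower. HSPA2 lay below the summed pair in both libraries. The 4 cytosolic genes together had 844 RPKM in the knockdown library and 659 RPKM in the wild type library, of which HSPA8 made up 87.2% and 84.5% in the same order.

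The other HSP70 genes lay within the 1.2-fold rule. HSPA12B, 1.29-fold lower as a plain ratio of low values, passed it downward with equal summed RPKM, or with 0.1 RPKM added instead of 1. HSPA9, the mitochondrial HSP70 (mortalin), had 203 RPKM in the knockdown library and 191 RPKM in the wild type library. HSPA14, which works at the ribosome, had 32.5 RPKM in the knockdown library and 29.5 RPKM in the wild type library. HSPA13, a short form of the secretory pathway, had 17.4 RPKM in the knockdown library and 17.2 RPKM in the wild type library. The distant relatives HSPA12A and HSPA12B had 7.99 and 1.26 RPKM in the knockdown library and 7.65 and 1.62 RPKM in the wild type library. The testis form HSPA1L had 1.65 RPKM in the knockdown library and 1.83 RPKM in the wild type library. The median over the 10 measured HSP70 genes was 0.07, and -0.12 with equal summed RPKM.

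HSP110 proteins, which recharge HSP70 with ATP, had a family median of 0.41 over 3 genes, and of 0.21 with equal summed RPKM. HSPA4L had 18.7 RPKM in the knockdown library, against 13.1 RPKM in the wild type library, 1.43-fold higher. HSPH1, the heat-inducible member, had 87.1 RPKM in the knockdown library, against 65.5 RPKM in the wild type library, 1.33-fold higher, but inside the rule with equal summed RPKM, where its difference was 0.21. HSPA4, the most abundant of the 3, differed least, with 115 RPKM in the knockdown library and 107 RPKM in the wild type library. Its difference turned below 0 with equal summed RPKM.

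HSPD1, which encodes the mitochondrial HSP60, had 704 RPKM in the knockdown library, against 558 RPKM in the wild type library (1.26-fold higher, a difference of 0.33, or 0.14 and inside the rule with equal summed RPKM). Of the 573 other loci averaging 100 RPKM or more described above, 18 (3.14%) were higher by as much or more. GENCODE lists 17 pseudogenes of HSPD1. The locus that names its co-chaperonin HSPE1 along with PHOCN, the neighbour with which it shares transcripts, had 484 RPKM in the knockdown library and 403 RPKM in the wild type library, a difference of 0.26 that belongs to the locus. The mitochondrial J proteins DNAJC11 and DNAJC30 had 21.4 and 8.44 RPKM in the knockdown library, against 16.7 and 6.73 RPKM in the wild type library. Both passed the 1.2-fold rule upward. DNAJA3, a partner of HSPA9 in the matrix, had 42.5 RPKM in the knockdown library and 39.1 RPKM in the wild type library. DNAJC19, related to the J protein of the import motor, had 15.4 and 15.2 RPKM in that order. Of the 7 mitochondrial members (these with HSPA9 and TRAP1), 3 were past the rule upward, which 12.4% of all named genes met, and the rest lay inside it. With equal summed RPKM all 7 lay inside it.

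**Figure D3:**
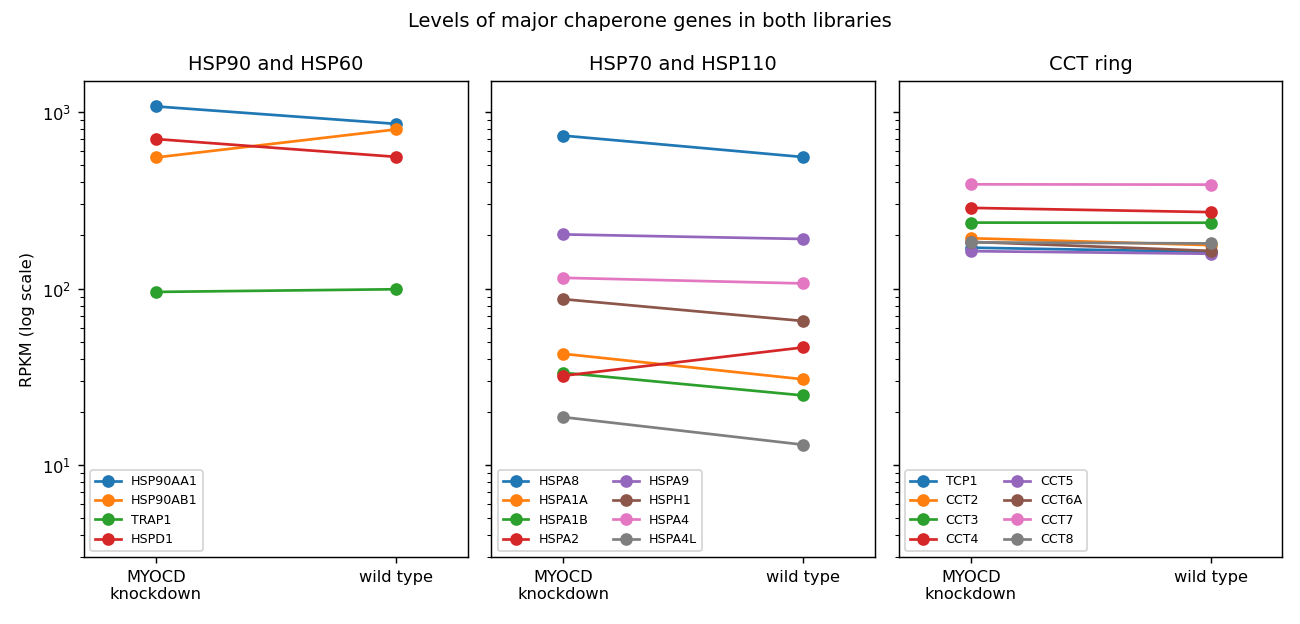
RPKM (y axis, log scale) of major chaperone genes in the knockdown library (left) and the wild type library (right); each line joins the values of 1 gene. The lines of HSP90AA1 and HSP90AB1 come together in the wild type library, at 858 and 798 RPKM, and lie apart in the knockdown library, at 1077 and 553 RPKM, while the lines of the CCT ring run nearly level.

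The CCT chaperonin, whose ring is built of 8 different subunits, had nearly equal levels in the libraries. The subunits ranged from 163 (CCT5) to 390 RPKM (CCT7) in the knockdown library and from 158 (CCT5) to 388 RPKM (CCT7) in the wild type library, and the highest exceeded the lowest 2.39-fold in the knockdown library and 2.46-fold in the wild type library. Their differences lay between 0.00 for CCT3 and 0.17 for CCT6A, all of them below 0 with equal summed RPKM. CCT2 had 193 RPKM in the knockdown library and 176 RPKM in the wild type library, CCT4 had 287 and 271 RPKM, and CCT8 had 183 and 180 RPKM in the same order. TCP1, which encodes the alpha subunit and holds the small nucleolar RNA genes SNORA20 and SNORA29, had 171 RPKM in the knockdown library and 161 RPKM in the wild type library. CCT3 had 237 RPKM in the knockdown library and 236 RPKM in the wild type library. CCT6A had 184 RPKM in the knockdown library and 164 RPKM in the wild type library. It also holds small nucleolar RNA genes, and its pseudogenes CCT6P1 (3.17 RPKM in the knockdown library, 2.88 RPKM in wild type) and CCT6P3 (1.60 and 1.81 RPKM in that order) fall under the symbol rule too. Summed over the ring the level was 1807 RPKM in the knockdown library and 1735 RPKM in the wild type library.

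J proteins of class A, the general partners of cytosolic HSP70, differed little. DNAJA1 had 146 RPKM in the knockdown library and 152 RPKM in the wild type library. DNAJA2 had 49.5 and 47.2 RPKM in that order. Class B held a gene on either side of the rule. DNAJB4, a cytosolic relative of DNAJB1, had 17.4 RPKM in the knockdown library, against 11.3 RPKM in the wild type library (1.53-fold higher, a difference of 0.57). DNAJB2, which carries ubiquitin-interacting motifs and is best known from neurons, had 8.39 RPKM in the knockdown library, against 11.5 RPKM in the wild type library (1.37-fold lower, a difference of -0.41). DNAJB1, the classical heat-inducible HSP40, had 79.3 RPKM in the knockdown library and 66.8 RPKM in the wild type library, a difference of 0.24 that falls just short of the rule. DNAJB6, a suppressor of polyglutamine aggregation, had 78.2 RPKM in the knockdown library and 74.3 RPKM in the wild type library. DNAJB5 had 2.44 and 2.53 RPKM in that order. The ER membrane proteins DNAJB12 and DNAJB14 had 17.7 and 12.4 RPKM in the knockdown library and 16.5 and 11.8 RPKM in the wild type library.

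Class C J proteins share little beyond the J domain and serve many sites. Of 20 measured, 4 passed the rule upward and 1 downward, where 12.4% and 14.1% of all named genes did, with a median of 0.12. With equal summed RPKM the median was -0.07. Then 1 passed upward (DNAJC27) and 2 downward (DNAJC22 and DNAJC8), where 3.93% and 33.1% of all named genes did. DNAJC27, which joins a J domain to a RAB-like GTPase, had 2.73 RPKM in the knockdown library, against 1.52 RPKM in the wild type library, a low level at which the pseudocount counts; its locus holds a small nucleolar RNA gene. DNAJC16, an ER protein whose gene also holds a short RNA gene, had 5.68 RPKM in the knockdown library, against 4.53 RPKM in the wild type library. These and the mitochondrial DNAJC11 and DNAJC30 were the 4 upward ones. The downward one was DNAJC22, with 12.6 RPKM in the knockdown library, against 15.5 RPKM in the wild type library. DNAJC8, a spliceosome component, had 40.2 RPKM in the knockdown library and 42.8 RPKM in the wild type library. DNAJC6 (auxilin), which uncoats clathrin vesicles, had 2.59 RPKM in the knockdown library and 2.78 RPKM in the wild type library. The ribosome-associated DNAJC2 had 21.1 and 18.7 RPKM and the ER reductase DNAJC10 had 61.6 and 52.9 RPKM in the same order, both inside the rule.

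The small heat shock proteins hold unfolding proteins without ATP. HSPB1 (HSP27), the abundant heat-inducible one, had 558 RPKM in the knockdown library and 594 RPKM in the wild type library, a difference of -0.09, or -0.29 and past the rule downward with equal summed RPKM. HSPB8, which works with BAG3 in selective autophagy, had 9.21 RPKM in the knockdown library, against 7.36 RPKM in the wild type library, a difference of 0.29, or 0.11 with equal summed RPKM. Of the genes called heat- or stress-inducible here, HSPB1 lay below 0, while HSPA1A, HSPA1B, HSPH1, HSP90AA1, DNAJB1, BAG3 and CHORDC1 lay above it. Of all named genes, 52.1% lay above 0. With equal summed RPKM BAG3 also lay below 0, at -0.018. This group was not listed beforehand and may leave out other inducible genes, so no response can be read from it. HSPB11 had 52.3 RPKM in the knockdown library and 51.6 RPKM in the wild type library.

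BAG proteins release substrate from HSP70 and direct it to different fates. BAG2, an inhibitor of the chaperone-linked ubiquitin ligase CHIP, had 32.6 RPKM in the knockdown library, against 21.6 RPKM in the wild type library (1.51-fold higher, a difference of 0.57). BAG5 had 15.5 RPKM in the knockdown library and 12.7 RPKM in the wild type library, a difference of 0.26 that lies just inside the rule. BAG3, the heat-inducible partner of HSPB8, had 58.2 RPKM in the knockdown library and 51.4 RPKM in the wild type library. BAG4 had 10.1 and 8.91 RPKM in that order. The others were on the lower side, inside the rule here but past it with equal summed RPKM, at -0.31 for BAG1, -0.28 for BAG6 and -0.37 for HSPBP1. BAG1 had 7.43 RPKM in the knockdown library and 8.30 RPKM in the wild type library. BAG6, which guards tail-anchored membrane proteins, had 49.0 RPKM in the knockdown library and 52.0 RPKM in the wild type library. HSPBP1, an exchange factor of another fold, had 52.1 RPKM in the knockdown library and 58.8 RPKM in the wild type library.

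The heat shock factors lay inside the rule. HSF1 had 48.9 RPKM in the knockdown library and 46.6 RPKM in the wild type library, a difference of 0.07 that turns below 0 with equal summed RPKM. HSF2 had 6.40 RPKM in the knockdown library and 7.48 RPKM in the wild type library, a difference of -0.20, or -0.37 and past the rule downward with equal summed RPKM. These are levels of the messages, while HSF1 is known to be controlled mainly by release from chaperones, trimer formation and phosphorylation, which RNA levels do not show.

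Promoter sequence was set beside these values because HSF1 drives inducible genes of these families through heat shock elements. RefSeq windows from 250 bases before to 50 after annotated starts (build GRCh38.p14) were found by symbol for 60 of the 71 genes, some with several starts. The windows were searched for the 2-unit heat shock element GAANNTTC or TTCNNGAA, each of which reads the same on both strands, and for the 3-unit element, in which NNGAA follows the first form or NNTTC the second, on both strands; it holds overlapping 2-unit matches. The 8 windows shown were picked from genes with large differences in the HSP90, HSP70, HSP60, BAG and J families. They are read 5′ to 3′ on the strand of the gene, with 2-unit matches in capitals. Other genes past the rule, such as DNAJC27, DNAJB2 and HSPH1, hold no 2-unit match, and their windows are not shown. HSP90AA1 is at chr14:102086995-102087294 (minus strand), HSP90AB1 at chr6:44247693-44247992 (plus), HSPA8 at chr11:123062087-123062386 (minus), HSPD1 at chr2:197499791-197500090 (minus), HSPA1A at chr6:31815293-31815592 (plus), BAG2 at chr6:57172076-57172375 (plus), DNAJB4 at chr1:78004689-78004988 (plus) and HSPA2 at chr14:64540491-64540790 (plus). HSP90AA1, HSP90AB1, HSPD1 and DNAJB4 have further annotated starts, and the window with the most matches is shown.
HSP90AA1: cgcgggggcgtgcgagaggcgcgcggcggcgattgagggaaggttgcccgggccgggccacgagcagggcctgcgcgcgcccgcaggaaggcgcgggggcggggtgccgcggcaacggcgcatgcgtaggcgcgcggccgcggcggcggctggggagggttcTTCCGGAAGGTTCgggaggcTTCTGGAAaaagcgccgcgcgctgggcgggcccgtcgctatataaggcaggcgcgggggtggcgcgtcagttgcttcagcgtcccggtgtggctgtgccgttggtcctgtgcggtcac
HSP90AB1: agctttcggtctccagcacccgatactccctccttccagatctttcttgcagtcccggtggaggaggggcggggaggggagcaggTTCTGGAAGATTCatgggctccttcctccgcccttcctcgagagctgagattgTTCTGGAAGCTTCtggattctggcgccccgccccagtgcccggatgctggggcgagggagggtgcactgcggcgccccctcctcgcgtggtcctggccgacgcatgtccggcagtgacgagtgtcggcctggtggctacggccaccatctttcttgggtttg
HSPA8: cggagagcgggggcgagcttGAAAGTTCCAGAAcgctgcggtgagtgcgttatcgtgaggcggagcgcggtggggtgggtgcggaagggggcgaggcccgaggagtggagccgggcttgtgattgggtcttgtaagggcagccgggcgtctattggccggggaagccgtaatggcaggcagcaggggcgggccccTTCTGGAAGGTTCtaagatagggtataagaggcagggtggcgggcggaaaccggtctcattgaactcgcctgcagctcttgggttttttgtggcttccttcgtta
HSPD1: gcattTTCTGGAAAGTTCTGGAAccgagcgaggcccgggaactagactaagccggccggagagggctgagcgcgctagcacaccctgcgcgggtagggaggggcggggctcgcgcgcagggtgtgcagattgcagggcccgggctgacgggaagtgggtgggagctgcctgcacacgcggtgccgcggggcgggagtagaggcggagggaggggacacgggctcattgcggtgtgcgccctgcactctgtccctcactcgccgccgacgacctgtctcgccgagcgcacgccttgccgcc
HSPA1A: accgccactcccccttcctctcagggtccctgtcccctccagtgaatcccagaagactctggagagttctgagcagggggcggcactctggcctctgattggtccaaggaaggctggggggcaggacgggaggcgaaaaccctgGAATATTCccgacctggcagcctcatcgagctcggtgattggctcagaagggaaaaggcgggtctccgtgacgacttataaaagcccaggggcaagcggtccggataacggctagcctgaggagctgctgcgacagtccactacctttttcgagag
BAG2: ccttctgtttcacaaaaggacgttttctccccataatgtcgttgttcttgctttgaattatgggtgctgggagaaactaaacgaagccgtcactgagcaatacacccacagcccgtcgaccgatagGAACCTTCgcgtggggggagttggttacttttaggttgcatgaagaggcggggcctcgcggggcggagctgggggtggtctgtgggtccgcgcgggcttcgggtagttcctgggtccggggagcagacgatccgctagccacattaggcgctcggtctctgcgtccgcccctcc
DNAJB4: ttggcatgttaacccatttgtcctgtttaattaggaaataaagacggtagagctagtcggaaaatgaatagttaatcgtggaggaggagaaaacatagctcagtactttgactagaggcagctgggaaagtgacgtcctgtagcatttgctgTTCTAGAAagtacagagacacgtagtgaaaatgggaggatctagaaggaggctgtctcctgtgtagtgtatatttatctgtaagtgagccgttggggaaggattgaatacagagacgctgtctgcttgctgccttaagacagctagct
HSPA2: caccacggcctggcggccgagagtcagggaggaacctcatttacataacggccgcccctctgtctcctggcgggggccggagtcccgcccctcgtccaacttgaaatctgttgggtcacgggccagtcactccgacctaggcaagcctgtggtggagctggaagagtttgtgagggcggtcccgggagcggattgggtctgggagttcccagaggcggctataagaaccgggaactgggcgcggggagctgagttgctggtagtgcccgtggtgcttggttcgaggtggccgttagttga
Both cytosolic HSP90 genes hold the element. HSP90AB1 holds 3-unit matches starting 165 and 112 bases before the start, and HSP90AA1 holds 1 starting 88 bases before it. Whether the element bears on their levels was not tested. HSPA8 has 3-unit matches starting 230 and 55 bases before the start, and those of HSPD1, starting 245 and 240 bases before, overlap. HSPA1A has a single 2-unit match 106 bases before the start in a window 92.0% identical to that of HSPA1B, which has one 105 bases before. BAG2 and DNAJB4 have 1 match each, and the letters of neither form occur in the window of HSPA2.

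The 2-unit element was found in 22 of the 60 matched chaperone genes (36.7%), against 16.2% of 27305 genes with a window, and the 3-unit element in 6 of 60 (10.0%), against 0.608%. The 6 are HSP90AA1, HSP90AB1, HSPA8, HSPD1, DNAJA1 and DNAJB6. Among measured members, the 20 with the 2-unit element had a median difference of 0.19, and 9 were past the 1.2-fold rule upward and 1 downward. These are not all separate: the matches of HSPA1A and HSPA1L are the same bases, read from opposite strands. HSPA1A and HSPA1B, whose reads can hardly be told apart, both count among the upward ones. The 38 without it had a median of 0.06, with 5 past the rule upward and 2 downward. With equal summed RPKM the medians were -0.01 with the element and -0.12 without. Past the rule were then 4 upward and 2 downward among those with it, and 1 upward and 7 downward among those without. Under that scaling 3.93% of all named genes passed upward and 33.1% downward. Over all measured genes with a window the element went with no such difference in level: the median was 0.02 for 1104 genes with it and 0.02 for 7125 without. At least 1.2-fold higher in the knockdown library were 11.9% and 11.4% of them, and 12.5% and 12.5% were at least 1.2-fold lower. HSPH1, among the higher genes, holds no match in its window. Only exact, adjacent units were searched for, so an element with a changed base or other spacing would be missed. The CArG box, the binding sequence of serum response factor, was in 1.6% of the 27305 genes and in 0 of the 60 chaperone genes, a number too small to set apart from that share.

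**Figure D4:**
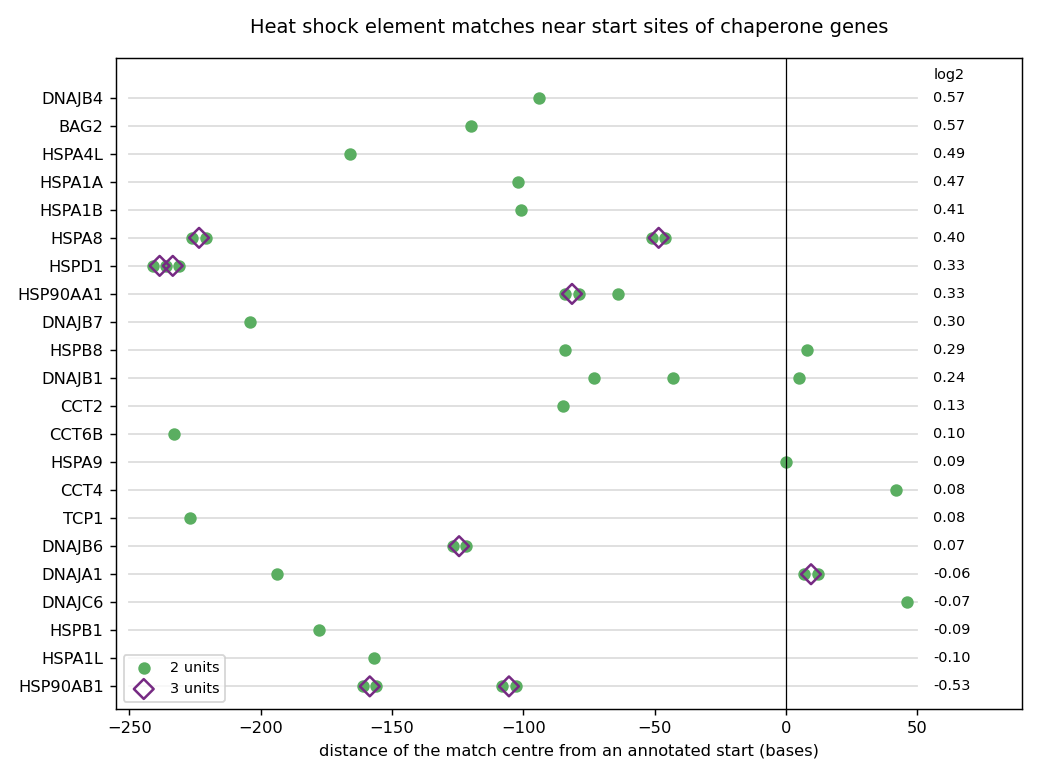
Positions of heat shock element matches (x axis, distance of the match centre from an annotated start in bases) in the 22 chaperone genes that hold one, ordered by their difference between the libraries, knockdown over wild type (right, log2); green dots are 2-unit and open diamonds 3-unit matches, and all annotated starts of a gene share its row. Only 250 bases before to 50 after each start were searched. The 3-unit matches occur in genes with differences from -0.53 to 0.40.

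Proteins that work beside these families were taken as a list of 47 co-chaperones, prefoldin and tubulin assembly factors and mitochondrial proteases. Of 45 measured, 5 (11.1%) passed the 1.2-fold rule upward and 1 (2.22%) downward, with a median of 0.02. Of all named genes, 12.4% and 14.1% did. With equal summed RPKM 1 passed upward and 11 downward, where 3.93% and 33.1% of all named genes did. TOMM34, which links HSP70 and HSP90 during mitochondrial import, was highest, with 26.3 RPKM in the knockdown library, against 18.1 RPKM in the wild type library. CHORDC1, a heat-inducible HSP90 partner, had 45.7 RPKM in the knockdown library, against 36.4 RPKM in the wild type library, and the prefoldin subunit PFDN1 had 51.4 and 41.1 RPKM in the same order. The lowest was CLPX, the unfoldase of the mitochondrial matrix, with 26.3 RPKM in the knockdown library, against 33.5 RPKM in the wild type library. AHSA2 and the protease CLPP followed, with 40.5 and 40.1 RPKM in the knockdown library and 47.5 and 44.3 RPKM in the wild type library, both inside the rule. ER folding genes, a list of 18 that includes the ER chaperones left out of the set, had a median of 0.07. Against the same shares of all named genes, 4 of them were past the rule upward and 1 downward, or 0 and 4 with equal summed RPKM. Their HSP70, HSPA5, had 232 RPKM in the knockdown library and 193 RPKM in the wild type library, while DNAJB11, a J protein partner of it, had 31.4 RPKM in the knockdown library, against 41.9 RPKM in the wild type library. The share of ER folding genes past the rule upward, 22.2%, was close to the 20.3% of the chaperone genes, and no difference between the compartments can be read from it.

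**Figure D5:**
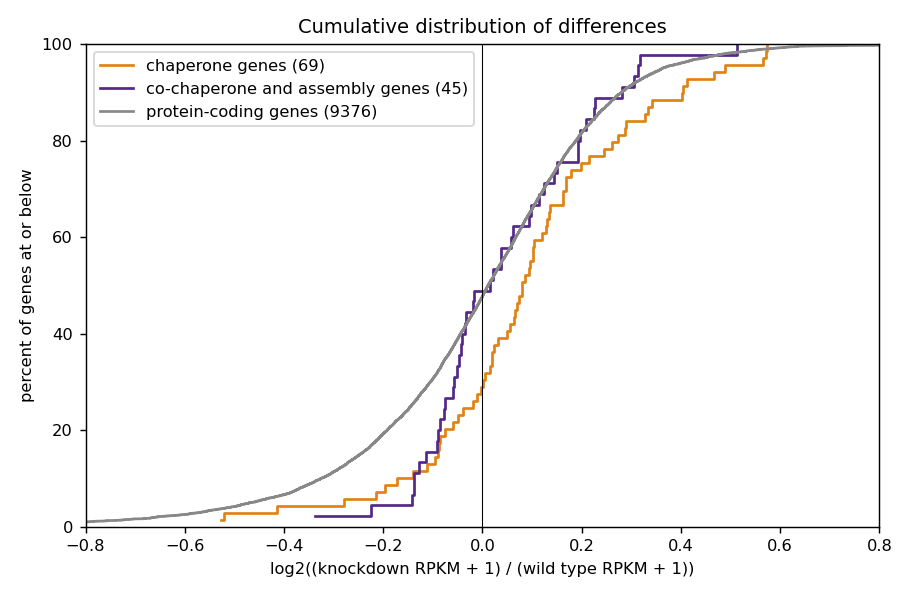
Cumulative percent of genes (y axis) at or below a difference of log2((knockdown RPKM + 1) / (wild type RPKM + 1)) (x axis) for 69 chaperone genes, 45 co-chaperone and assembly genes and 9376 protein-coding genes. Only the last set was limited to single-gene loci without a short RNA gene inside. Without the members that hold such a gene the chaperone median was 0.07. The chaperone curve lies to the right of the protein-coding curve around its middle, with medians of 0.08 and 0.01; both medians lie below 0 with equal summed RPKM over all loci.

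The bases AATATGC were searched for in 3′ UTRs because earlier work on these same libraries had singled that word out among genes lower in the knockdown library. In the longest annotated 3′ UTR (GENCODE release 29) it was in 9 of 67 measured members (13.4%), against 11.7% of 9359 protein-coding genes. Only the latter were limited to single-gene loci without a short RNA gene inside. Of the 9, HSP90AB1 was past the rule downward and HSPA4L upward, while CCT4, DNAJA1, DNAJA2, DNAJC10, HSPA12A, HSPA14 and HSPA9 lay inside it. Of the protein-coding genes with the word 21.0% were past the rule downward and 9.41% upward, against 12.8% and 11.9% of those without it. The word was picked from lower genes of these same libraries, so that excess was built in and gives no separate support. Over the protein-coding genes the median difference was -0.03 with the word and 0.02 without it, and over the members it was 0.08 with and 0.09 without.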

How the data were processed

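RNA-seq values of 2 libraries were used, 1 of A549 cells with MYOCD knockdown and 1 of wild type A549 cells. The deposited values are RPKM per locus, computed by the authors. Per the submitters' processing notes, which assign no roles, the builds were BDGP5, of the fruit fly, and GRCh38.p12, and the tools Cufflinks 2.2.1 and TopHat2 2.0.10. Annotation, read filters and strandedness are items not given in the sources used here. Without counts the depth is unknown, and counting intervals could not be set.

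Loci with no gene name (1909 of 14952) and 19 names changed into dates were left out, and values of names on several lines were summed, which touched 0 members. No test was made, each group having 1 library. Members averaging 1 RPKM or more were described by fold rules of 1.2 and 2 and by their log2 difference, to which a pseudocount of 1 RPKM was added, so that differences of low genes are understated. Short RNA genes (microRNAs, small nucleolar and Cajal body RNAs) inside a gene on its strand, 3′ UTRs and coding sequences were taken from GENCODE release 29 (GRCh38), whose boundaries need not be those of the deposited loci. Promoter windows came from RefSeq. Members of every family other than the J proteins were named by rule, as were the extremes of the J proteins and of the co-chaperone list, while further J proteins, HSP90AB2P, HSPA5 and DNAJB11 were named after their values were seen. The members and lists were chosen with earlier results of these data known. The scripts, tested on simulated data, ran in Python 3.11.15 with Biopython 1.88, pandas 2.3.3 and numpy 2.4.6.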

Additional observations from a re-analysis of the deposited data

How the results depend on the processing

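Equal summed RPKM over all loci was the 1 alternative that moved the medians by more than 0.1. The shift is smaller than the 1.2-fold rule on the log2 scale, so it could not turn the direction of a gene past the rule, but 9 genes were no longer past it upward. It moved the median of all named genes by -0.18. The median of the chaperone genes became -0.12, and those by family -0.12 (HSP70), 0.21 (HSP110), -0.25 (HSP90), 0.14 (HSP60), -0.13 (CCT), -0.13, -0.12 and -0.074 (J classes A, B and C), -0.18 (small heat shock), -0.018 (BAG and HSPBP1) and -0.25 (heat shock factors). The co-chaperone median was then -0.18 and the ER folding median -0.12. Past the rule were 5 members upward and 11 downward, where 3.93% and 33.1% of all named genes passed it. DNAJB4, BAG2, DNAJC27, HSPA4L and HSPA1A were the 5. The sums differ by 1.15-fold over all loci, and by 1.005-fold over named loci, so the shift arises in loci with no gene name. The remaining alternatives were pseudocounts of 0.1 and 5 RPKM, no filter or a mean of at least 5 RPKM, equal sums over named loci, centring on the median of all named genes, leaving out members that hold a short RNA gene, the highest row of a name, and means for medians. Under these, 10 to 15 members were past the rule upward and 3 to 5 downward, and the median of the chaperone genes lay between 0.07 and 0.09. The shares of all named genes moved too. With a pseudocount of 5 RPKM 5.97% of them passed upward and 7.27% downward, and with 0.1 RPKM 15.1% and 16.6%. A pseudocount of 5 RPKM took DNAJC16, DNAJC22, DNAJC27, DNAJC30 and HSPB8 inside the rule, all genes under 20 RPKM. One of 0.1 RPKM took BAG5 past it upward and HSPA12B past it downward. No paired analysis was possible because each group has 1 library. Depth is unknown, so the precision of genes with few reads cannot be given.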
